A study of Mus musculus with 6 samples.

Results

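Microglia, the resident macrophages of the brain, carry G protein-coupled receptors that read small molecules of injured or infected tissue, and 10 genes of such receptors for lipids, formyl peptides, protons and metabolites are described here. They were chosen by symbol (Gpr84, Hcar2, Gpr183, Fpr1, Fpr2, Ptafr, Ltb4r1, Gpr65, Cmklr1 and Lpar6), each stood on 1 line of the deposited table, and together they are 10 of its 38207 genes and loci. The 6 libraries were nanopore cDNA libraries of wild-type mouse brain microglia, 3 after sham surgery and 3 after tMCAO, which in its usual reading is transient occlusion of the middle cerebral artery, a model of ischemic stroke. Each library pooled the cells of 30 mice. No source used here gives the animals' age, sex or strain, the time after surgery or how the cells were obtained.

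These receptors span the membrane and pass a bound ligand on to heterotrimeric G proteins, which steer cAMP, calcium and phosphoinositide signals and, through them, migration, secretion and phagocytosis. Gpr84 responds to medium-chain fatty acids, Hcar2 to niacin and the ketone body beta-hydroxybutyrate, and Gpr65 to protons, that is, to acid outside the cell. Gpr183 follows oxysterols made from cholesterol, Ptafr platelet-activating factor, Ltb4r1 the leukotriene B4, Lpar6 lysophosphatidic acid and Cmklr1 the protein chemerin. Fpr1 and Fpr2 bind formylated peptides, which bacteria and mitochondria release. Gpr84 and Hcar2 signal through inhibitory G proteins, whereas Gpr65 raises cAMP.

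Levels are in CPM (counts scaled to the library total), fold changes compare tMCAO with sham on the log2 scale and carry a standard error (SE), and adjusted p-values come from edgeR's quasi-likelihood test over all 13127 genes tested. Genes with an adjusted p under 0.05 are called changed. Libraries held 1855495 to 2614512 counts, so that 1 count was worth 0.382 to 0.539 CPM. The 11 microglial markers were all well detected, with summed levels of 38350 to 39662 CPM in sham and 35257 to 38851 in tMCAO, and P2ry12, Siglech, Sparc and Fcrls among them were lower, Fcrls not without sham 1 or tMCAO 2. On the second principal component of log2 CPM (19.8% of the variance), tMCAO 3 stood apart at 50.6 from tMCAO 1 at -31.4 and tMCAO 2 at -24.3. Markers of other cells were present as well, and their calls stand beside 9.17% of all tested genes called higher and 8.96% called lower. Border-associated macrophage markers summed to 186 to 236 CPM in sham and 409.6 to 552 in tMCAO (5 of 8 tested higher), monocyte markers to 76.9 to 93.2 and 91.1 to 282 (3 of 6 higher), and neutrophil markers to 1809 to 2273 and 537 to 1813 (2 of 12 lower). Astrocyte markers summed to 138 to 412 CPM in sham and 63.5 to 93.2 in tMCAO (2 of 4 tested lower), oligodendrocyte markers to 186 to 1029 and 140.1 to 339 (1 of 6 lower), and erythroid markers to 955 to 6040 and 215 to 379.7 (0 of 3 called). Choroid plexus markers summed to 13323, 42509 and 8304 CPM in sham 1 to 3 and to 2151, 3807 and 9446 in tMCAO 1 to 3 (1 of 4 tested lower). In sham 2 that was more than the 38350 CPM of the microglial markers. The single tested dendritic cell marker, Cd209a, was higher (2.25 ± 0.43). Among these calls, that of Cd163 (border-associated macrophages) was lost with any library but tMCAO 3 left out. Those of Aldoc and Slc1a2 (astrocytes) were lost with any tMCAO library left out, Slc1a2 also without sham 1. Mobp (oligodendrocytes) lost its call without tMCAO 1 or tMCAO 3, and Clic6 (choroid plexus) without sham 2, sham 3, tMCAO 1 or tMCAO 2. Fn1 (monocytes) lost its call with limma voom (adjusted p = 0.0800). Ms4a7 (border-associated macrophages) was called higher at an adjusted p of 0.0479 in edgeR's test, with 68.9, 79.8 and 207 CPM in tMCAO 1 to 3. Its call was not followed with libraries left out or in other fits. None of these lists had a gene at 0 in every library. In bulk pools, fewer or more cells of a type and less or more RNA per cell cannot be told apart.

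Gpr84, Hcar2 and Gpr65 rose after tMCAO, by 2.76, 6.75 and 4.18 times in mean CPM. Gpr183, Lpar6, Ptafr and Cmklr1 were detected in every library and were not called. Fpr1, Fpr2 and Ltb4r1 lay at a few counts per library, below the filter on low counts. So 3 of the 10 genes, and of the 7 that could be tested, were called higher, while 9.17% of all tested genes were called higher. None was called lower, against 8.96% of all genes. The receptors and the gene lists below were chosen with earlier results of these data known. Counts of calls among them are therefore no test of a class of genes. At an unadjusted p under 0.05 in edgeR's test, Gpr183 and Lpar6 were lower. Of all tested genes, in either direction, 26.2% had a p at or below that of Gpr183 and 30.3% at or below that of Lpar6. Neither DESeq2 nor limma called any of the 7 lower. In CPM, the ranges of sham and tMCAO were apart for 3 of the 7 genes tested, all 3 higher in tMCAO. Of all tested genes, 37.8% had groups that did not overlap, with tMCAO higher in 23.3% and lower in 14.6%. These shares and the ratios of mean CPM rest on library totals, whereas the calls and log2 fold changes used TMM scaling. With library totals as the only scaling, the median log2 fold change of all tested genes was 0.11. With TMM scaling, the median log2 fold change of the 7 was 0.07, and that of all tested genes was 0.00.

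**Figure D1:**
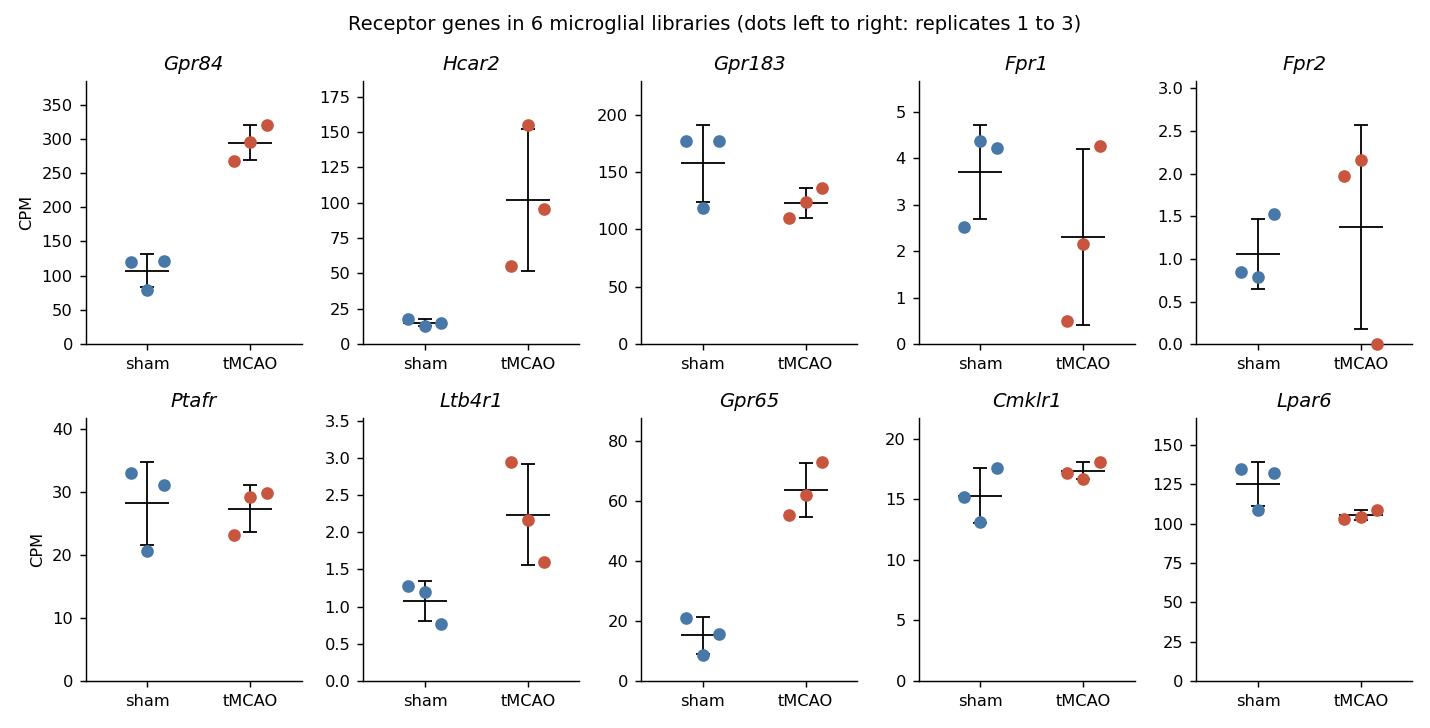
CPM of each receptor gene (vertical axis, linear and from 0, a scale per gene) in the 3 sham and the 3 tMCAO libraries; dots are libraries, horizontal bars the means and whiskers the SD. In CPM scaled to library totals, Gpr84, Hcar2 and Gpr65 do not overlap between the groups, whereas Gpr183, Lpar6, Ptafr and Fpr1 do.

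Gpr84 (ENSMUSG00000063234) stood at 119.8, 79.3 and 122 CPM in sham libraries 1 to 3 and at 268, 296 and 319.5 in tMCAO libraries 1 to 3. Every tMCAO library was well above every sham library, and sham 2 was the lowest of all. The means were 107 ± 23.9 and 295 ± 25.9 CPM (SD, n = 3), and the log2 fold change was 1.35 ± 0.18 (SE; adjusted p = 0.000380 in edgeR's test). A change at least this positive was seen in 4.62% of all tested genes.

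Hcar2 (ENSMUSG00000045502) had 17.7, 12.7 and 14.9 CPM in sham and 55.6, 155 and 95.3 in tMCAO. All 3 tMCAO libraries were above sham, but they differed among themselves more than those of Gpr84, with tMCAO 2 the highest and tMCAO 1 the lowest. The level went from 15.1 ± 2.52 to 102 ± 49.8 CPM, and the log2 fold change of 2.63 ± 0.36 (adjusted p = 0.00184, edgeR) was the largest of the 7, and 1.10% of all tested genes rose at least as far. With 1 library left out it ran from 2.26 to 2.96.

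Gpr65 (ENSMUSG00000021886) had 21.1, 8.72 and 15.7 CPM in sham and 55.2, 62.0 and 73.0 in tMCAO. The lowest tMCAO library was clear of the highest sham library, and sham 2 was the low one of its group, as it was for Gpr84. The level went from 15.2 ± 6.20 to 63.4 ± 8.98 CPM, with a log2 fold change of 1.96 ± 0.28 (adjusted p = 0.000573, edgeR). The calls of all 3 genes held under each of the 14 alternatives tried, the fit without tMCAO 3 among them, at adjusted p of at most 0.00341 for Gpr84, 0.0389 for Hcar2 and 0.00528 for Gpr65. Of the border-associated macrophage markers 5 of 8, of the monocyte markers 3 of 6 and the dendritic cell marker Cd209a were higher in the same libraries. Of all tested genes, 9.17% were called higher. The part of such cells in the rises of Gpr84, Hcar2 and Gpr65 was not tested.

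**Figure D2:**
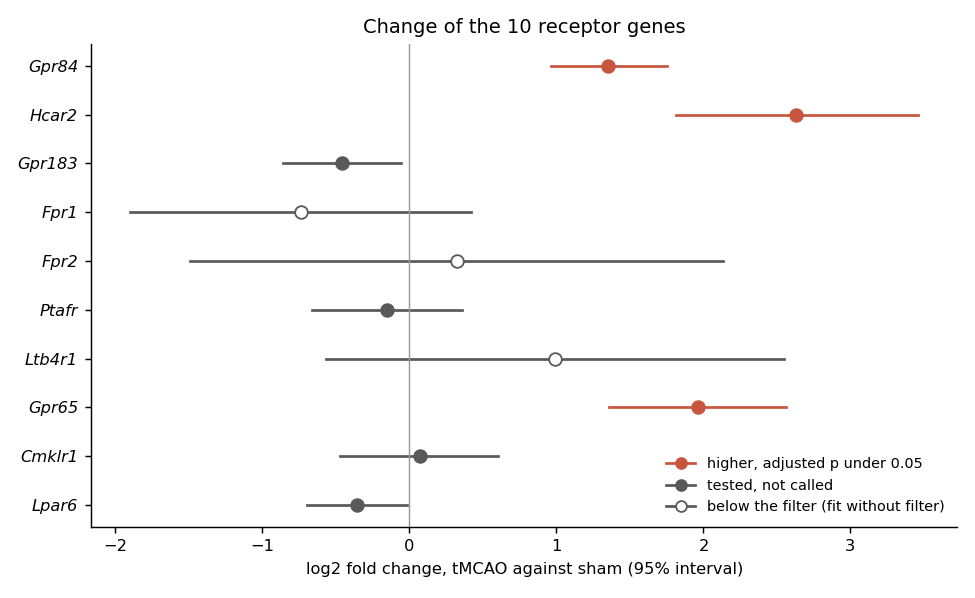
Log2 fold change of tMCAO against sham for each receptor gene (horizontal axis) with its 95% interval; filled dots come from the test over all genes and open dots from the fit without a filter on low counts. The intervals of Gpr84, Hcar2 and Gpr65 lie wholly above 0, while those of Gpr183 and Lpar6 lie just below it and their genes were not called. The fit behind the open dots gave far smaller adjusted p-values for Gpr84, Hcar2 and Gpr65, so open and filled dots have intervals that are not comparable.

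Because 3 of these genes rose in the same libraries, the stretch around the RefSeq start sites (GRCm38.p6, 250 bases before to 50 after the start) was read for 6 short motifs on both strands. Windows were at hand for 9 of the 10 genes. Hcar2 was the 1 without. The windows of Gpr84 (chr15:103310389-103310688, minus strand) and Gpr65 (chr12:98268385-98268684, plus strand) are shown as those of the genes that rose, and that of Gpr183 (chr14:121965144-121965443, minus strand) as one that was not called. Each reads 5′ to 3′ along its gene, with a motif match in capitals; the windows of Gpr65 and Gpr183 held none.
Gpr84: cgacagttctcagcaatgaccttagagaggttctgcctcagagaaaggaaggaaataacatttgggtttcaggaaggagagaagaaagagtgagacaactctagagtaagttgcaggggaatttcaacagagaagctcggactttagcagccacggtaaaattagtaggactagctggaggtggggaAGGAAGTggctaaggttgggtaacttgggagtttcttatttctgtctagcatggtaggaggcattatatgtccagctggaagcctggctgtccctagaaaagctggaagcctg
Gpr65: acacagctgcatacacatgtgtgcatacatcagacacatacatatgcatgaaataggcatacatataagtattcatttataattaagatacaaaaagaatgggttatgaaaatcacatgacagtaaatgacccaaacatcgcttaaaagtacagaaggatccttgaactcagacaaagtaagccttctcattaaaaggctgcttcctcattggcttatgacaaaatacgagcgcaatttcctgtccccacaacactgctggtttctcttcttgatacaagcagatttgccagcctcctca
Gpr183: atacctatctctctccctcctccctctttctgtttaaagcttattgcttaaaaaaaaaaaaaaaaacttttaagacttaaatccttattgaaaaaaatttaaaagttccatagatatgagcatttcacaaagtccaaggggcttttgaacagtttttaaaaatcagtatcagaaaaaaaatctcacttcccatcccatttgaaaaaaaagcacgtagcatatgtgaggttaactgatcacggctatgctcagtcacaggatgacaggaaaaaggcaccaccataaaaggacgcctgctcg
The Gpr84 window held 1 match to the core bound by PU.1 and other ETS factors, AGGAAGT, starting 63 bases before the gene's start. That core was found in 9.35% of the 32851 windows of all genes. Ltb4r1 had the only other match among the 9 windows, to the same core. No window of the 9 held a match to the NF-kB consensus (8.46% of all windows), the AP-1 site TGANTCA (7.81%), the interferon response element, GAAA repeated after a gap of any 2 bases (3.44%), the cAMP response element TGACGTCA (1.79%) or the C/EBP site TTGCNNCAA (2.08%). The motif of PU.1 overlaps those of other ETS factors, and a match in letters is not a bound site.

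Gpr183 (ENSMUSG00000051212) had 177, 119 and 177 CPM in sham and 109.8, 124 and 136 in tMCAO. Sham 2 lay among the tMCAO libraries, so the groups overlapped. The means were 158 ± 33.4 and 124 ± 13.3 CPM and the log2 fold change was -0.46 ± 0.18, with a 95% interval of -0.86 to -0.06 and an adjusted p of 0.102 in edgeR's test. Without tMCAO 3 the gene was called lower (-0.56, adjusted p = 0.0460), and over all alternatives its adjusted p ran from 0.0460 to 0.307. The gene lies within Ubac2 on the opposite strand in the GENCODE M21 annotation. Ubac2 had 34 to 65 counts per library against 223 to 464 for Gpr183 and was not called (0.34 ± 0.25). No source used here says whether counting used strand.

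Lpar6 (ENSMUSG00000033446) had 135, 109 and 132 CPM in sham and 103, 104 and 109 in tMCAO. Here too sham 2 came down to the tMCAO values, in CPM scaled to library totals. The fold change also used a scaling factor per library (TMM), and a factor under 1 raises a level. It was 0.9204 for sham 2 and 1.073, 1.07 and 0.9787 for tMCAO 1 to 3, so the overlap depends on the scaling. Its log2 fold change was -0.36 ± 0.16 (95% interval -0.70 to -0.02, adjusted p = 0.133 in edgeR's test), and it was called under none of the 14 alternatives. Lpar6 lies within the retinoblastoma gene Rb1 on the opposite strand, and Rb1 had 5 to 18 counts per library against 193 to 344 for Lpar6.

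Ptafr (ENSMUSG00000056529) had 32.9, 20.6 and 31.0 CPM in sham and 23.1, 29.1 and 29.8 in tMCAO. The groups overlapped fully. Its log2 fold change was -0.15 ± 0.24 (adjusted p = 0.700 in edgeR's test), and its 95% interval ran from -0.66 to 0.36. Cmklr1 (ENSMUSG00000042190) had 15.2, 13.1 and 17.6 CPM in sham and 17.2, 16.7 and 18.1 in tMCAO, and its groups overlapped as well. Its log2 fold change of 0.07 ± 0.25 (95% interval -0.47 to 0.60, adjusted p = 0.886) came to -0.00 with upper-quartile scaling.

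The formyl peptide receptors were close to the limit of detection. Fpr1 (ENSMUSG00000045551) had 6, 11 and 11 counts in sham and 1, 4 and 8 in tMCAO, or 3.70 ± 1.02 and 2.30 ± 1.89 CPM. Fpr2 (ENSMUSG00000052270) had 2, 2 and 4 counts in sham and 4, 4 and 0 in tMCAO, and the 0 of tMCAO 3 allows a level of up to 1.60 CPM (3 counts, for counting error only). Both genes were low in every library. In the fit without a filter, the log2 fold changes were -0.74 (95% interval -1.90 to 0.42) for Fpr1 and 0.32 (-1.49 to 2.13) for Fpr2. That edgeR fit gave Hcar2 an adjusted p of 2.81e-30, against 0.00184 with the filter. Its intervals, those of Ltb4r1 included, are therefore not comparable with those of the tested genes. The log2 ratio of Fpr2 to Fpr1 counts, which needs no library scaling, was -1.64 ± 0.48 in sham and -0.83 ± 2.93 in tMCAO (two-sided exact permutation p = 0.700, also 0.700 adjusted over 5 ratios), and without tMCAO 1 its difference turned from 0.81 to -0.40. Fpr2 overlaps Fpr3 on the same strand in GENCODE M21, and Fpr3 had no count in any library. Fpr1 is also a neutrophil gene. Of the 12 neutrophil markers tested, Retnlg and Lcn2 were lower after tMCAO and 10 were not called, while 8.96% of all tested genes were lower. The neutrophil markers summed to 1813, 537 and 991 CPM in tMCAO 1 to 3, where Fpr1 had 0.492, 2.16 and 4.26 CPM. The call of Lcn2 was lost under 4 of 14 alternatives (adjusted p from 3.30e-08 to 0.110 in edgeR and the other tools), without sham 2, sham 3 or tMCAO 3 among them, and that of Retnlg under 1. The part of neutrophils in the Fpr1 values was not tested.

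Ltb4r1 (ENSMUSG00000046908) had 3, 3 and 2 counts in sham and 6, 4 and 3 in tMCAO. All 3 tMCAO libraries were above sham in CPM (1.07 ± 0.270 and 2.24 ± 0.682), on 8 counts against 13. Since sham 1, sham 2 and tMCAO 3 each had 3 counts, tMCAO 3 was set apart from these only by library totals. Of all tested genes, 23.3% had every tMCAO library above sham. The fit without a filter gave a log2 fold change of 0.99 with a 95% interval of -0.57 to 2.55 (adjusted p = 0.476, edgeR), so a change was not detectable at this depth. Its neighbour Ltb4r2, the low-affinity leukotriene B4 receptor, had no count.

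As shares of the counts of the 10 receptors, the make-up of each library moved from Gpr183 and Lpar6 toward Gpr84, Hcar2 and Gpr65. Gpr183 held 33.8, 32.3 and 34.4% in sham and 17.2, 15.7 and 17.3% in tMCAO. Gpr84 held 22.9, 21.5 and 23.6% in sham and 42.0, 37.3 and 40.6% in tMCAO. Libraries of a group were close to each other in both shares, and the groups lay far apart. Lpar6 went from 27.0 ± 2.24% to 14.4 ± 1.62%, Hcar2 from 3.24 ± 0.302% to 13.4 ± 5.50% and Gpr65 from 3.14 ± 0.838% to 8.58 ± 0.734%. Since shares add up to a whole, a rise of one receptor lowers the share of the others. The 10 genes held 369 to 523 CPM in all in sham and 638 to 794 in tMCAO.

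**Figure D3:**
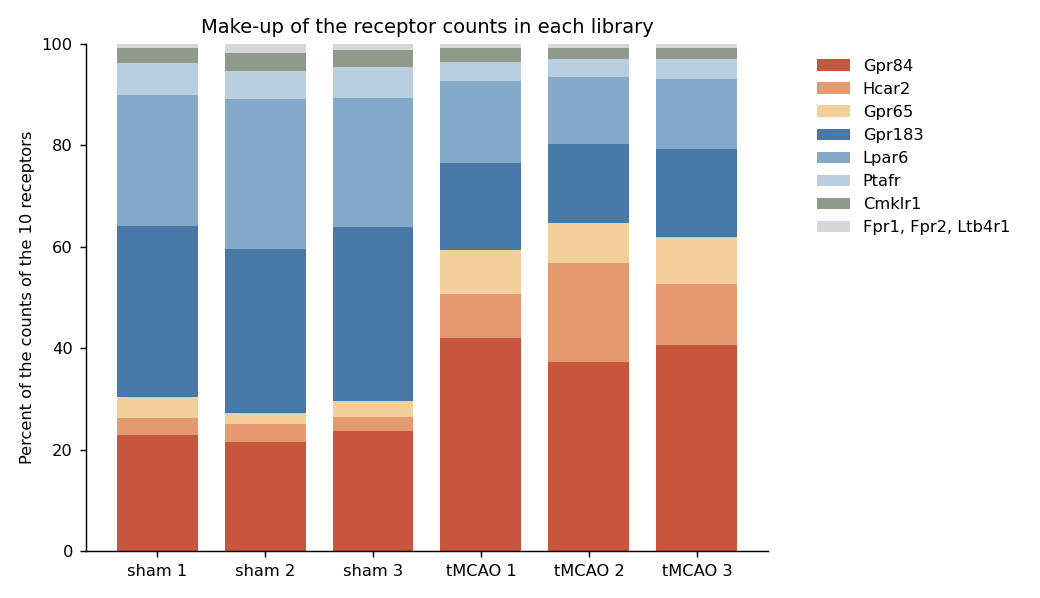
Percent of the counts of the 10 receptors held by each gene (vertical axis, from 0) in each library; Fpr1, Fpr2 and Ltb4r1 are drawn as one block. Gpr183 is the largest block in all 3 sham libraries and Gpr84 in all 3 tMCAO libraries.

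The ratio of Gpr84 to Gpr183 counts within a library set the groups apart with little spread. In log2 it was -0.56, -0.59 and -0.54 in sham and 1.28, 1.25 and 1.23 in tMCAO, a difference of 1.82. Both genes had their lowest sham level in sham 2, yet sham 2 had a ratio close to the other sham libraries. The log2 ratio of Hcar2 to Gpr84 was -2.79 ± 0.20 in sham and -1.65 ± 0.67 in tMCAO, and that of Gpr65 to Gpr84 was -2.86 ± 0.34 and -2.22 ± 0.08. For each of these 3 ratios the groups did not overlap, and a two-sided exact permutation of the libraries gave p = 0.1 (0.125 adjusted over the 5 ratios computed), the smallest value that 3 libraries against 3 allow. These 3 ratios were chosen after the values were seen.

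The genes with the most similar course over the 6 libraries were found by the root mean square difference of log2 CPM from the sham mean, among 8431 annotated genes. Closest to Gpr84 was Grn, which encodes the lysosomal protein progranulin, at 0.07 log2 units, followed by BC147527 (0.11) and the chemokine gene Ccl12 (0.12). BC147527 had only 2.11, 1.59 and 2.29 CPM in sham. Its call was lost under 8 of 14 alternatives (adjusted p from 0.0176 to 0.110 in edgeR and the other tools), with any library but tMCAO 1 left out among them. Grn went from 768, 585 and 809.7 CPM in sham to 1838, 2013 and 2048 in tMCAO and, like Gpr84, was lowest in sham 2. Closest to Gpr65 were Ddx60 (0.11), an interferon-induced helicase, Zc3hav1 (0.19), the zinc finger antiviral protein, and Arhgap19 (0.20). Hcar2 had no neighbour as near. Its closest genes were Lgals3bp (0.30), the galectin-3 binding protein, Ctse (0.30), the protease cathepsin E, and Gla (0.34), the lysosomal alpha-galactosidase. All 3 shared the order of Hcar2 in tMCAO, with tMCAO 2 highest and tMCAO 1 lowest. Shared orders of this kind, that of Grn and Gpr84 included, follow largely from choosing genes by similarity over these same libraries.

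Of 35 genes that make, remove or encode ligands of these receptors, 26 could be tested. There were 4 called higher and 2 lower, and 20 were not called, while of all tested genes 9.17% were called higher and 8.96% lower. The median log2 fold change was 0.00, as it was for all tested genes. Ch25h, which makes the precursor of the Gpr183 ligand, had 2, 1 and 6 counts in sham and 72, 75 and 94 in tMCAO (1.18 ± 0.993 and 42.0 ± 7.42 CPM; 4.96 ± 0.41, adjusted p = 1.18e-05, edgeR). The log2 fold change of Ch25h ran from 4.58 to 5.83 with 1 library left out, the highest without sham 3, which held 6 of the 9 sham counts. So the enzyme gene rose from near the limit of detection in libraries in which the receptor gene was not called. The log2 ratio of Gpr183 to Ch25h counts went from 7.39, 7.65 and 6.16 in sham to 1.62, 1.62 and 1.44 in tMCAO, a difference of -5.51 (two-sided exact permutation p = 0.1, 0.125 adjusted). Of the other enzymes of that ligand, Hsd3b7 was not called (0.15 ± 0.43) and Cyp7b1, which makes the final ligand from the Ch25h product, was below the filter.

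Saa3, a serum amyloid of the family that includes Fpr2 ligands, rose from 1, 2 and 1 counts in sham to 112, 83 and 50 in tMCAO (a log2 fold change resting on 4 sham counts, 6.04 ± 0.44, adjusted p = 3.93e-06, edgeR), whereas Saa1 had 1 count in all and Saa2 none. The receptor genes Fpr1 and Fpr2 stayed at a few counts in the same libraries. Anxa1 (-0.25 ± 0.30), whose protein annexin A1 is an Fpr2 ligand, and Camp (-0.95 ± 0.67), the cathelicidin of neutrophil granules, were not called. Around platelet-activating factor, Pla2g7, the secreted enzyme that breaks it down, rose from 22.8 ± 7.26 to 109.5 ± 32.7 CPM (2.15 ± 0.32, adjusted p = 0.00218, edgeR), while Ptafr was not called. Lpcat1, an acyltransferase that can make it, was lower (-1.30 ± 0.38, adjusted p = 0.0322), a call lost under 8 of 14 alternatives (adjusted p from 0.0221 to 0.124), the removal of sham 1, sham 3, tMCAO 1 or tMCAO 2 among them. Lpcat2, the inducible enzyme of its synthesis, had 101, 359 and 368 CPM in sham and 515, 460.3 and 49.0 in tMCAO, with sham 1 and tMCAO 3 the low ones of their groups, and was not called (0.15 ± 1.01).

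None of the 4 leukotriene genes tested was called, while 18.1% of all tested genes were called in either direction. Ltc4s, which turns the pathway toward cysteinyl leukotrienes, came nearest, with 494, 429 and 518 CPM in sham and 373, 333 and 416 in tMCAO (-0.47 ± 0.15, adjusted p = 0.0503, edgeR). The groups did not overlap, as was so with tMCAO lower for 14.6% of all tested genes. Ltc4s was called lower under 4 of 14 alternatives (0.0114 to 0.176), one of them without tMCAO 3. Alox5ap (-0.28 ± 0.15), which hands the fatty acid to the lipoxygenase Alox5, and Lta4h (-0.11 ± 0.20), which makes leukotriene B4 itself, were not called. Plpp1, a phosphatase that can remove lysophosphatidic acid, was higher (0.92 ± 0.30, adjusted p = 0.0485), a call lost under 10 of 14 alternatives (0.0119 to 0.344), with any library but tMCAO 1 left out among them. Acadm, the enzyme that breaks down medium-chain fatty acids, was lower at 104 ± 4.80 and 75.4 ± 4.48 CPM (-0.58 ± 0.17, adjusted p = 0.0276), a call lost under 7 of 14 alternatives (0.0176 to 0.114), with any library but tMCAO 3 left out among them. Enpp2, the lysophosphatidic acid-making enzyme autotaxin, had 615, 2089 and 319 CPM in sham and 118, 230.1 and 506 in tMCAO and was not called (-1.94 ± 1.04). Its log2 fold change ran from -2.71 without tMCAO 3 to -0.77 without sham 2. Enpp2 is also made by the choroid plexus, whose markers summed to 8304 to 42509 CPM in sham and 2151 to 9446 in tMCAO, and the part of those cells in the Enpp2 values was not tested.

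**Figure D4:**
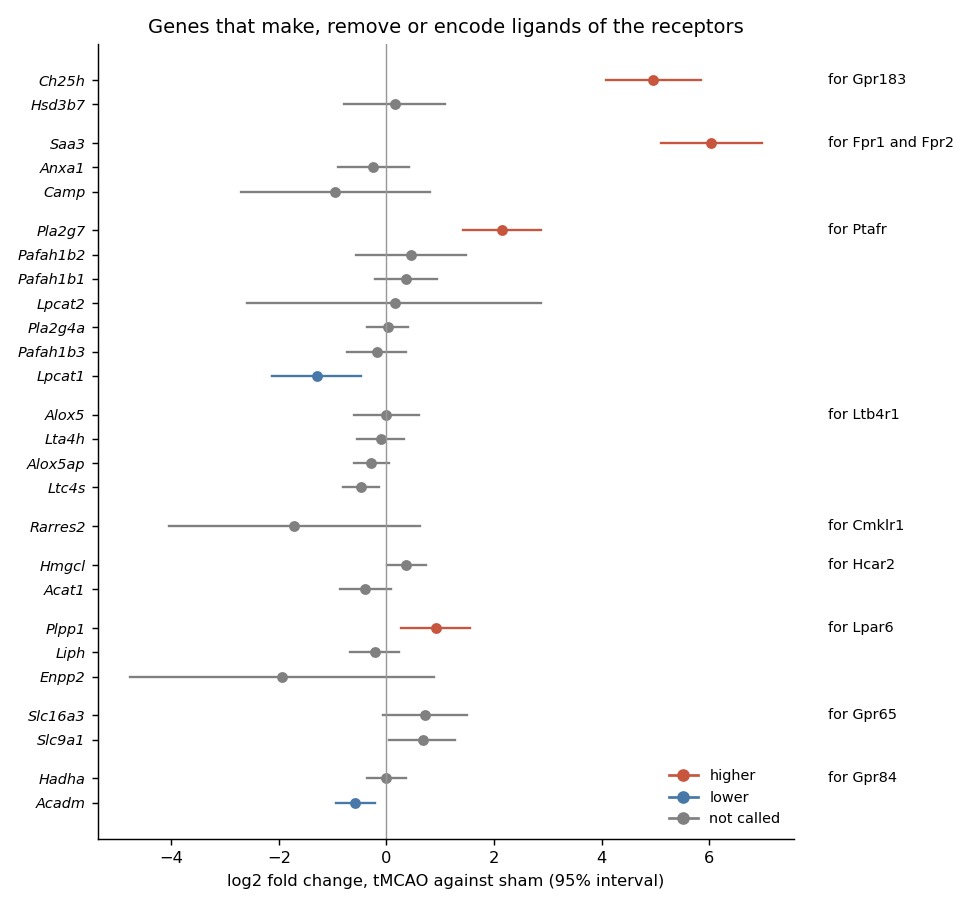
Log2 fold change of tMCAO against sham (horizontal axis) with its 95% interval for the 26 tested genes that make, remove or encode ligands, grouped by receptor. Ch25h and Saa3 stand far to the right, and most intervals include 0.

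Among 40 signalling genes downstream of such receptors, 33 could be tested, of which 6 were higher, 4 lower and 23 not called, while 18.1% of all tested genes were called in either direction. They had a median log2 fold change of 0.15. On the cAMP route, the adenylyl cyclase gene Adcy7 went from 11.3 ± 2.88 to 24.7 ± 1.28 CPM (1.01 ± 0.26, adjusted p = 0.0176) and Pde4b, a phosphodiesterase that breaks cAMP down, from 34.8 ± 7.19 to 74.4 ± 11.4 (0.98 ± 0.20, adjusted p = 0.00470). Of the 7 tested RGS genes, whose proteins shorten G protein signals, 2 were higher, 1 was lower and 4 were not called (Rgs1, Rgs2, Rgs14 and Rgs19). Rgs10 fell from 2077 ± 62.9 to 1339 ± 95.2 CPM (-0.75 ± 0.13), and Rgs3 (0.85 ± 0.21) and Rgs16 (2.53 ± 0.58) rose, the latter from 5, 2 and 3 counts in sham to 11, 11 and 27 in tMCAO. Without tMCAO 3 the log2 fold change of Rgs16 was 1.91. Of the G protein subunits, Gng12 rose (1.12 ± 0.20) and Gng10 (-0.81 ± 0.14) and Gnaq (-0.98 ± 0.20) fell, while the inhibitory subunit genes Gnai2 (-0.17 ± 0.19) and Gnai3 (0.53 ± 0.22) were not called. Pik3r5, the adaptor of the receptor-coupled phosphoinositide kinase, was lower (-1.08 ± 0.29) and Rac2, a small GTPase of leukocyte migration, higher (0.54 ± 0.17). None of the 5 tested arrestins and receptor kinases was called. The calls of Rgs3 and Adcy7 were lost without sham 1, that of Adcy7 also without sham 2, that of Pik3r5 without sham 1, sham 3, tMCAO 1 or tMCAO 2, and that of Rac2 with any library but tMCAO 2 left out. Adjusted p over their alternatives reached 0.0896 for Rgs3, 0.107 for Adcy7, 0.0819 for Pik3r5 and 0.201 for Rac2, from lows of 0.00351, 0.00381, 0.0152 and 0.00330.

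Most other receptors of these classes were hardly detected. Of 47 related receptor genes, 14 had no count in any library, among them Fpr3 and the 4 Fpr-rs genes, and 5 could be tested. Ccrl2, a receptor-like protein that binds chemerin without signalling, rose from 133, 111 and 173 CPM in sham to 360.5, 600.4 and 674 in tMCAO (1.87 ± 0.26, adjusted p = 0.00135, edgeR). The signalling chemerin receptor Cmklr1 was not called in these libraries. The chemerin gene Rarres2 had 14, 45 and 4 counts in sham and 3, 10 and 3 in tMCAO. It was not called (-1.72 ± 0.98, adjusted p = 0.280 in edgeR's test), but was called lower under 2 of 14 alternatives. With 1 library left out its log2 fold change ran from -2.51 to -0.48, the latter without sham 2. Cnr2, the cannabinoid receptor of immune cells, was higher at 3.64 ± 1.59 and 10.5 ± 3.99 CPM (1.40 ± 0.42, adjusted p = 0.0344), and Gpr34, the lysophosphatidylserine receptor of microglia, was lower at 1222 ± 132 and 888 ± 148 CPM (-0.57 ± 0.16, adjusted p = 0.0277). Cnr2 lost its call without sham 2, sham 3 or tMCAO 2 and under 5 of 14 alternatives in all (0.00885 to 0.147), and Gpr34 without sham 1, sham 3, tMCAO 1 or tMCAO 2 and with library totals as the only scaling (0.00284 to 0.115). Cysltr1 (-0.51 ± 0.19) and S1pr1 (0.18 ± 0.18) were not called.

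**Figure D5:**
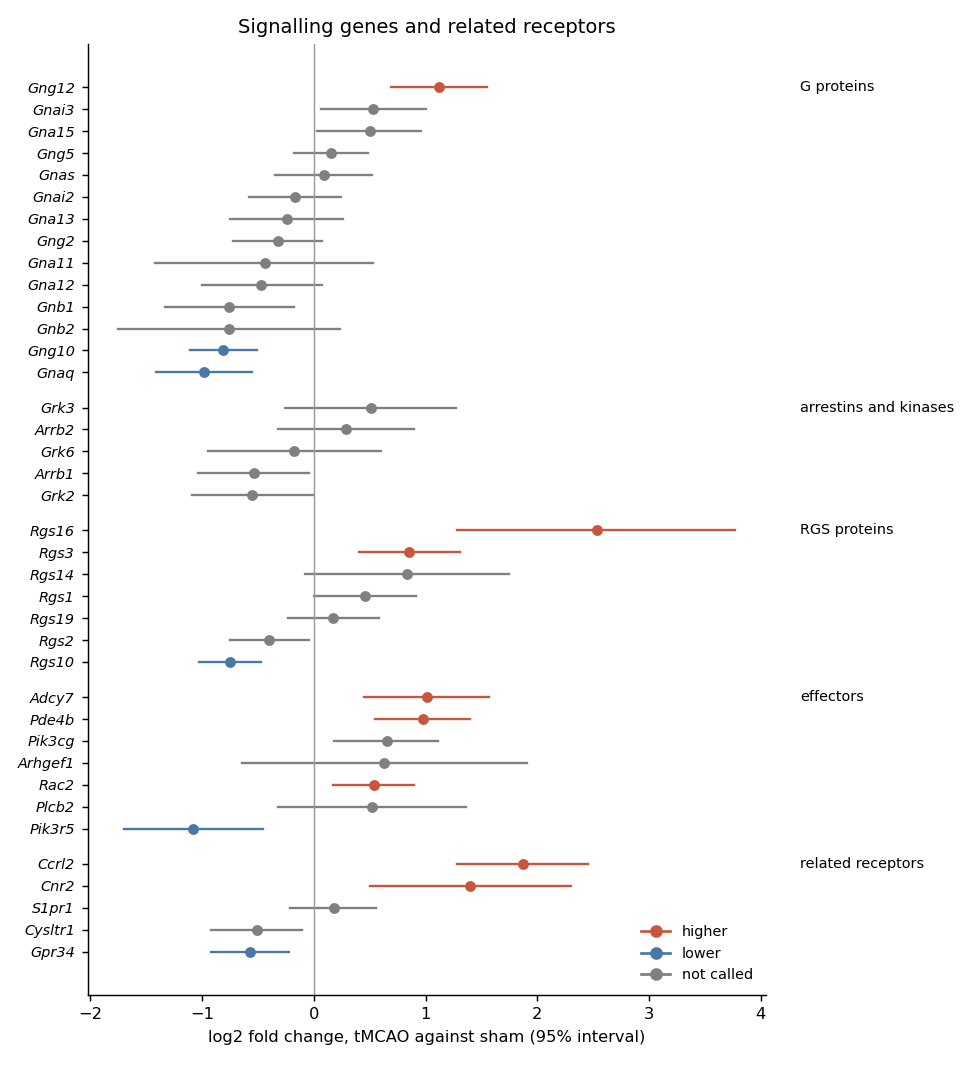
Log2 fold change of tMCAO against sham (horizontal axis) with its 95% interval for the 33 tested signalling genes and the 5 tested related receptors. Rgs16 and Ccrl2 lie farthest to the right, and Pik3r5, Gnaq, Gng10, Rgs10 and Gpr34 were called lower.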

How the data were processed

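The authors' deposited table held raw counts per gene and, beside them, CPM scaled to library totals, per the file headers; deposited CPM differed from CPM computed here by at most 4.87e-06. The cDNA was amplified by PCR for nanopore sequencing, per the labels' protocols, and the submitters' processing notes name minimap2. No source used here names the genome build, the annotation or the counting rule. Of 38219 lines, 12 without values were left out. Nothing in the labels says that pools were prepared separately, so the p-values reflect only how these libraries vary, which may be technical.

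Counts were tested with edgeR 4.0.16 (R 4.3.3): filterByExpr (minimum count 10, minimum total 15), TMM scaling, robust quasi-likelihood F tests with the group as the only term, and Benjamini-Hochberg adjustment over 13127 genes. Of these, 2380 were called, 1204 higher and 1176 lower. The SE is the log2 fold change divided by the square root of F. Ratios within libraries had 0.5 added to each count. Alternatives included DESeq2 1.42.0 and limma 3.58.1 (voom). Simulated counts (11963 genes run) had far fewer changed genes than the 2380 called here, and a spread set only by the trend with expression level. In them, 27 of 98 genes changed by a fold of 2 and 79 of 85 by a fold of 4 were recovered. With these settings, the shares do not give the sensitivity of the comparison in the data. Libraries of a group differed beyond sampling noise (chi-square of 4.64 to 9.02 divided by its degrees of freedom).

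The receptors and gene lists were chosen with earlier results of these data known. Named are all 10 receptors, overlapping genes, up to 4 genes per list with the smallest p (of cell markers, called ones only) and, for called receptors, the 3 genes with the most similar course (average log2 CPM of at least 2). Lpcat2, Cyp7b1, Saa1, Saa2, Gnai2, Gnai3, Rgs1, Rgs14, Rgs19, S1pr1, S1pr2, Gpr132, Ms4a7, Ltb4r2, Fpr3 and its relatives stand outside this rule. They were chosen after their values were seen. Counts are reads without molecular identifiers, so limits cover counting error only.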

Additional observations from a re-analysis of the deposited data

How the results depend on the processing

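The 3 receptors called higher numbered 3 under each of the 14 alternatives, and 0 were called lower, except for 1 (Gpr183) without tMCAO 3, so that this count ran from 0 to 1 with 1 library left out. The number of changed genes was 4039 with no filter on low counts, a fit that gave far smaller adjusted p-values for the 3 called receptors. It was 1573 without sham 1 and tMCAO 3 together. With 1 library left out it ran from 1254 (without sham 1) to 2590 (without tMCAO 3), and was 1558 without sham 3. Library totals as the only scaling shifted the median log2 fold change to 0.11 and made 63.2% of the calls higher, against 50.6% as reported and 42.2% with upper-quartile scaling. Ligand-making genes called lower numbered 1 with library totals, 4 with no filter, 0 with DESeq2, 0 with the replicate block and 0 to 3 with 1 library left out. Related receptors called higher numbered 4 with no filter (Gpr132 and S1pr2 besides Ccrl2 and Cnr2), 1 with DESeq2, 1 with the replicate block and 1 to 2 with 1 library left out; those called lower numbered 0 with library totals, 2 with upper-quartile scaling and 0 to 1 with 1 library left out.

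Libraries with the same number shared only the number: their deviations from the group means correlated at -0.209, 0.0167 and -0.174, and 0 of 6 libraries correlated best with its own number. With the replicate block, 1662 genes changed and no call of a receptor did. Some log2 fold changes near 0 changed sign. With 1 library left out, that of Cmklr1 ran from -0.01 to 0.15, of Hsd3b7 from -0.16 to 0.57, of Alox5 from -0.26 to 0.22, of Hadha from -0.10 to 0.12, of Arrb2 from -0.06 to 0.59, of Anxa1 from -0.42 to 0.10 and of Lta4h from -0.21 to 0.02. With upper-quartile scaling, Cmklr1 was at -0.00, Alox5 at -0.07 and Hadha at -0.07. Without sham 1 and tMCAO 3 together, Cmklr1 was at -0.03, Hsd3b7 at -0.21 and Hadha at -0.14. With voom, Hsd3b7 was at -0.04 and Alox5 at -0.02, and with the replicate block Alox5 was at -0.02. The difference in the Fpr2 to Fpr1 ratio ran from -0.40 to 2.44 with 1 library left out. The cause was not tested in any of these. Fpr1, Fpr2 and Ltb4r1 had 0 to 11 counts per library, which limits what can be said of their changes.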
